A study of Mus musculus with 13 samples.

Results

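Glycolysis and the pentose phosphate pathway were represented by 39 genes, matched by symbol in a table of 48587 genes of mouse macrophage RNA. The 39 comprise hexose and lactate carriers, the glycolytic enzymes with their isoenzymes, the enzymes that set the level of the phosphofructokinase activator, the pyruvate dehydrogenase kinases, the pentose phosphate enzymes and Hif1a. All 39 symbols were present, and 37 had enough counts to be tested. Fbp1 and Pdk4 fell under the filter on low counts. The libraries came from macrophages of the sciatic nerve (4 libraries), macrophages of the optic nerve (4 libraries) and microglia of the brain (5 libraries), all total RNA of C57BL/6J mice, with no treatment or age given in the labels. The sciatic nerve is a peripheral nerve and the optic nerve a tract of the central nervous system, and the series sets macrophages of those systems side by side. Whether the replicates came from separate animals is not in the labels, and if they are technical, p-values measure the spread between these libraries alone. The brain columns of the table were assigned by elimination, as the group with 5 libraries, and are numbered here as their columns are.

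Glycolysis cuts glucose into pyruvate in the cytosol and yields ATP without oxygen, and lactate dehydrogenase turns pyruvate into lactate when it is not burned in mitochondria. The pentose phosphate pathway branches off after hexokinase and yields NADPH and ribose. Activated macrophages are known for raised glucose uptake and lactate output, and the hypoxia-inducible factor switches on many of the same genes by binding a short core motif in their promoters.

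Total counts ran from 10.9 to 23.5 M per library. The 39 genes together took 0.228% to 0.274% of counts in sciatic nerve, 0.421% to 0.478% in optic nerve and 0.276% to 0.319% in brain. Levels are given in CPM, where each count is set against 1e6 counts of its library after TMM scaling. Summed over the 39 genes they were 2762 to 3270 in sciatic nerve, 4329 to 5263 in optic nerve and 2266 to 2657 CPM in brain, so that every optic nerve library lay above every other library. Microglial markers (10 genes) summed to 3141 to 3413 in sciatic nerve, 27440 to 30250 in optic nerve and 32750 to 61150 CPM in brain, and border macrophage markers (8 genes) to 13690 to 15990 CPM, 296.9 to 669 CPM and 8.52 to 27.1 CPM in the same order. The defining markers of brain microglia were therefore present in the brain libraries. Brain replicate 1 stood apart. It had the lowest total (10.9 M), 3.79% mitochondrially encoded counts where brain replicates 2 to 5 had 0.41% to 0.868%, and 27.7 CPM over 9 neuronal markers against 2.01 to 7.94 CPM. In bulk RNA a difference in the number of cells of a type cannot be told apart from a difference in RNA per cell.

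Optic nerve macrophages had the highest summed level of the pathway genes. Calls were made where edgeR's quasi-likelihood test gave an adjusted p under 0.05, with Benjamini-Hochberg adjustment over 13246 genes. The members were chosen with earlier results of these data known, so shares of members set beside those of all genes are descriptive only. Of the 37 tested members, 10 (27%) were called higher in optic nerve than in both sciatic nerve and brain, against 2.53% of all tested genes (335 genes). They were the glucose carrier gene Slc2a1, the lactate carrier gene Slc16a3, Aldoa, Tpi1, Eno1, Pkm and Ldha of the glycolytic chain, Pfkfb3 of its control, and Pgd and Taldo1 of the pentose phosphate pathway. In all 10, every optic nerve library was above every sciatic nerve and brain library. Gapdh, Pgk1 and Pgam1 shared that separation without being called against both tissues. The 10 were picked by calls on these same values, so their separation is no added evidence. The share of all tested genes with such a separation was not counted. No member was called lower in optic nerve than in both others, though Aldoc was by DESeq2 and with only the 2 tissues of each comparison fitted.

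Against brain, sciatic nerve had 9 members called higher (24.3%) and 8 called lower (21.6%), beside 24.1% and 24.3% of all tested genes. These shares were near those of all genes in both directions. Optic nerve had 14 members called higher than brain (37.8%) and 3 called lower (8.11%), beside 19.6% and 17.4% of all genes. Sciatic nerve against optic nerve gave 3 called higher (8.11%) and 14 called lower (37.8%), beside 10.9% and 10.9% of all genes. The smaller counts moved with single libraries: 1 member was lower in optic nerve than in brain without optic nerve replicate 2, 3 or 4 or brain replicate 1, and 5 were higher in sciatic than in optic nerve without brain replicate 1. The median log2 fold change of the tested members was -0.01 for sciatic nerve against brain, 0.52 for optic nerve against brain and -0.57 for sciatic against optic nerve, where the medians of all genes were -0.09, -0.08 and 0.00. At a change of at least 2-fold, 6 of the 37 tested members were called higher and 7 lower in sciatic nerve against brain. Shares of all tested genes were 18.0% and 19.3%. Optic nerve against brain had 5 and 2 of the 37, beside 12.6% and 12.5% of all tested genes. Sciatic against optic nerve had 1 and 5 of the 37, beside 8.28% and 7.85%. At this minimum the members higher in optic nerve than in brain were thus near the share of all genes. Both counts of sciatic nerve against brain were near it too. Libraries of the tissues did not overlap for 13 members (35.1%) in sciatic nerve against brain, 17 (45.9%) in optic nerve against brain and 22 (59.5%) in sciatic against optic nerve, beside 41.3%, 31.8% and 29.9% of all tested genes. The 3 comparisons share their libraries pairwise and are not independent of each other.

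**Figure D1:**
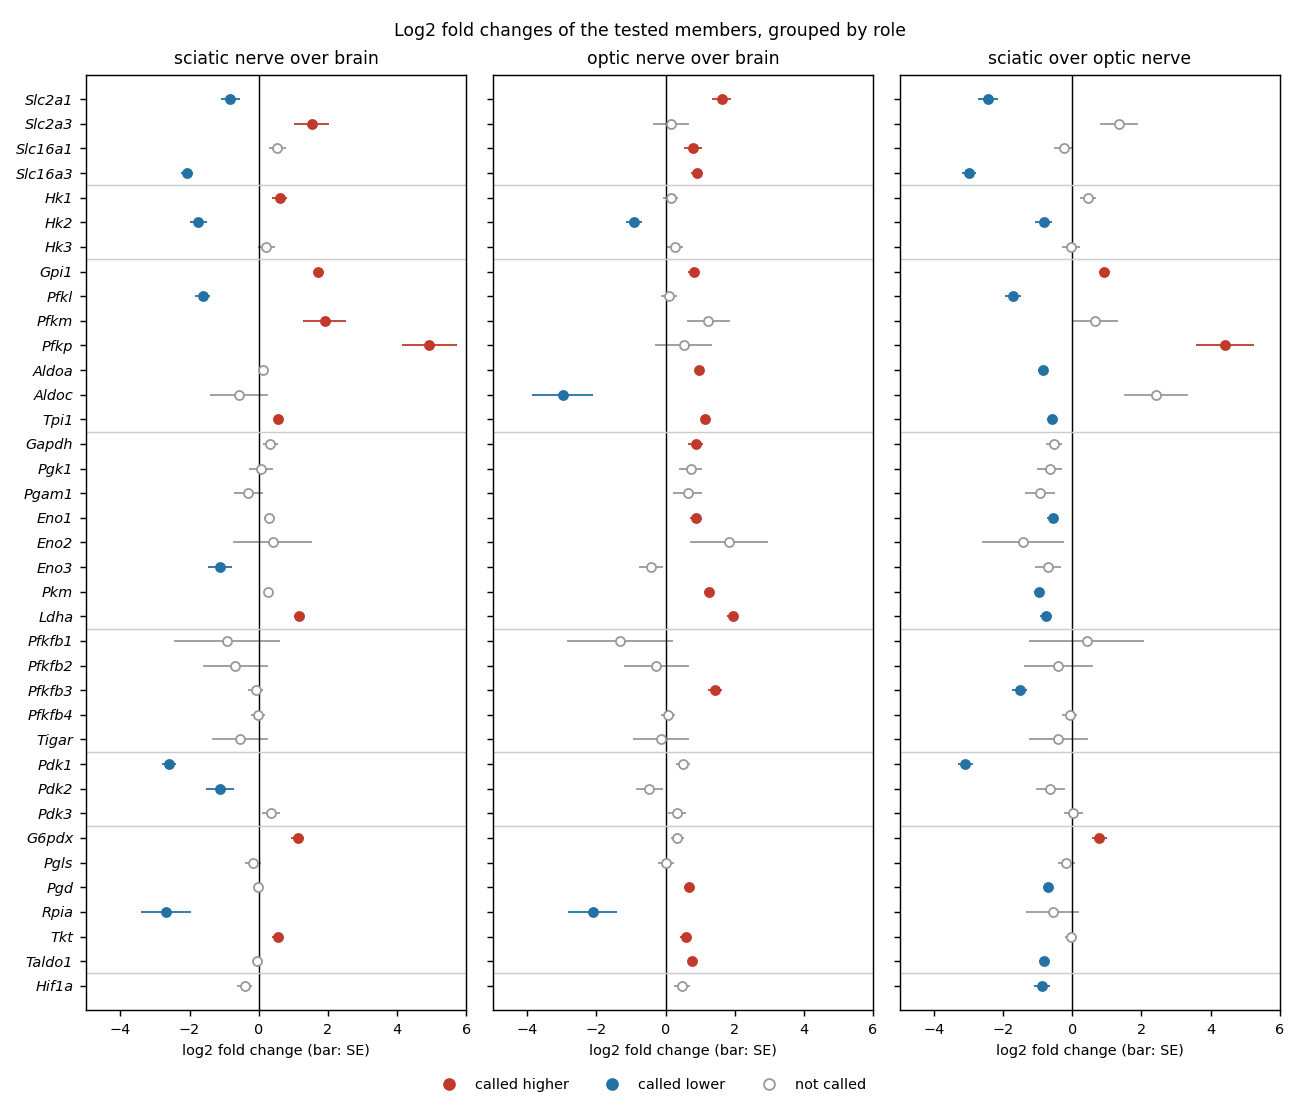
Log2 fold change (x axis, bar = SE of the fit) of the 37 tested members (rows, by role) for sciatic nerve over brain, optic nerve over brain and sciatic over optic nerve. Filled points were called at an adjusted p under 0.05; optic nerve over brain has 14 members called higher and 3 called lower, and sciatic over optic nerve has 3 called higher and 14 called lower.

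Promoters of 5 members are printed because the results turn on these genes: the 4 members called higher in optic nerve than in both other tissues that had the largest change over brain, and Pfkp, which had the largest change in sciatic nerve over brain. Each is the 250 bases before the first listed RefSeq start on GRCm38.p6, written on the strand of the gene. Ldha, Pfkfb3 and Pkm had 2 listed windows each, and only the first window of a gene was searched. Capitals mark the hypoxia-inducible factor core motif, searched as ACGTG and GCGTG on both strands.
Slc2a1 (chr4:119108495-119108744, plus strand): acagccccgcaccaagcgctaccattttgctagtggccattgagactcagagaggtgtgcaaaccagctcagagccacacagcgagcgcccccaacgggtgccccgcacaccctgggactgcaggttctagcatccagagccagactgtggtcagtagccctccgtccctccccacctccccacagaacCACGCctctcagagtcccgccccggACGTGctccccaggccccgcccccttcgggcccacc
Ldha (chr7:46845554-46845803, plus strand): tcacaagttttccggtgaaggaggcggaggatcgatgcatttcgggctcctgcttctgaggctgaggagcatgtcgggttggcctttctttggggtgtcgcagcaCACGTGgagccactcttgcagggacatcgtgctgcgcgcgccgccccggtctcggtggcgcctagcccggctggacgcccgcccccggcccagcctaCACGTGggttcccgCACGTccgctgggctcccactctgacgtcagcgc
Pfkfb3 (chr2:11553930-11554179, minus strand): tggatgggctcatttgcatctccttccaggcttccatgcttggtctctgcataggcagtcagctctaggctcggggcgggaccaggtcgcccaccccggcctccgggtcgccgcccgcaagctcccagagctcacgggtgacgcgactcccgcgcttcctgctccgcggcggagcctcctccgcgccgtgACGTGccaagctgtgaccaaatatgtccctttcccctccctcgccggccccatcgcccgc
Pkm (chr9:59656326-59656575, plus strand): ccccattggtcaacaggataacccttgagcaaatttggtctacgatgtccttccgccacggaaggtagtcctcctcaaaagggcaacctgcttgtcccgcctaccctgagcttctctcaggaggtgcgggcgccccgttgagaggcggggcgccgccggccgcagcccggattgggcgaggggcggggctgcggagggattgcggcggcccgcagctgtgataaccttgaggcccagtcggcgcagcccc
Pfkp (chr13:6648772-6649021, minus strand): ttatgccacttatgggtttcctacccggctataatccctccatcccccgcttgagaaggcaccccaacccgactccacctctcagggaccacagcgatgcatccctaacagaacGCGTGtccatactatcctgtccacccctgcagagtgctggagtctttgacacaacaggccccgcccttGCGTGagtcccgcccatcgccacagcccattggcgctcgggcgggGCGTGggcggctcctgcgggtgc
The Slc2a1 window held matches 61 and 36 bases before the start, and the Pfkfb3 window held 1 match 60 bases before it. The Ldha window held 5 matches, of which 4 were overlapping pairs within 2 copies of CACGTG, which reads the same on both strands. The Pkm window held none, which says only that these letters are not in it, and Pfkp, which was highest in sciatic nerve, held 3. Of the 39 members 38 had a RefSeq promoter in the table, and 29 of the 38 (76.3%) held a match, as did 7 of the 10 members highest in optic nerve (70.0%). All first listed promoters of this length held one in 38.6% (27025 promoters) and those of tested genes in 56.9% (9453 promoters). A match is a string of letters and does not show binding.

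Of the 4 carrier genes 3 (75.0%) were called higher in optic nerve than in brain, beside 19.6% of all tested genes. In sciatic nerve 2 were called lower than in both other tissues, beside 8.43% of all tested genes. Slc2a1 (chr4:119108711-119137983) encodes GLUT1, the basal glucose carrier. Its level was 40.5, 58.7, 56.9 and 33.0 CPM in the sciatic nerve libraries, 233, 257, 318 and 226 CPM in the optic nerve libraries, and 34.8, 81.4, 112, 96.0 and 93.0 CPM in the brain libraries. All optic nerve libraries were above the highest brain library, while sciatic nerve and brain overlapped through brain replicate 1. The log2 fold change was 1.63 (SE 0.27, adjusted p = 3.61e-04) for optic nerve over brain and -2.45 (SE 0.29, adjusted p = 2.63e-05) for sciatic over optic nerve. Sciatic nerve was lower than brain (-0.82, SE 0.28, adjusted p = 0.0249), a call that was lost without sciatic nerve replicate 1 or 4 or brain replicate 3 (adjusted p 0.0604 to 0.0755).

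Slc16a3 (chr11:120948480-120960868) encodes MCT4, a proton-coupled carrier that exports lactate from glycolytic cells. It stood at 11.1, 10.5, 13.2 and 11.3 CPM in sciatic nerve, 87.1, 90.4, 80.3 and 108 CPM in optic nerve, and 30.7, 51.4, 53.8, 50.9 and 55.5 CPM in brain. The tissues did not overlap in any pair. Optic nerve exceeded brain by 0.91 on the log2 scale (SE 0.18, adjusted p = 0.00129), and sciatic nerve was lower than brain (-2.08, SE 0.18, adjusted p = 5.32e-07) and than optic nerve (-2.99, SE 0.19, adjusted p = 5.98e-08). Slc16a1, which encodes the more widely expressed lactate carrier MCT1, averaged 64.7 ± 7.28 in sciatic nerve, 77.0 ± 6.44 in optic nerve and 44.5 ± 16.8 CPM in brain (SD, n = 4, 4 and 5). It was called for optic nerve over brain alone (0.79, SE 0.25, adjusted p = 0.0237), and that call was lost without optic nerve replicate 2 or 4 or brain replicate 2 (adjusted p 0.0516 to 0.0554) and with libraries scaled to total counts alone (0.0823). Per kb of the principal transcript, Slc16a1 had 14.6 and Slc16a3 2.65 CPM per kb in sciatic nerve, against 17.4 and 21.1 CPM per kb in optic nerve and 10.1 and 11.2 CPM per kb in brain. Thus Slc16a3 was the lower of the pair in sciatic nerve. Slc2a3, which encodes the high-affinity glucose carrier GLUT3, averaged 19.3 ± 12.1 in sciatic nerve, 7.53 ± 2.56 in optic nerve and 6.67 ± 3.34 CPM in brain. Its sciatic nerve libraries spread from 5.20 to 34.8 CPM, and the call over brain (1.53, SE 0.52, adjusted p = 0.0246) was lost without sciatic nerve replicate 3 (adjusted p = 0.121) and with libraries scaled to total counts alone (0.0891).

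**Figure D2:**
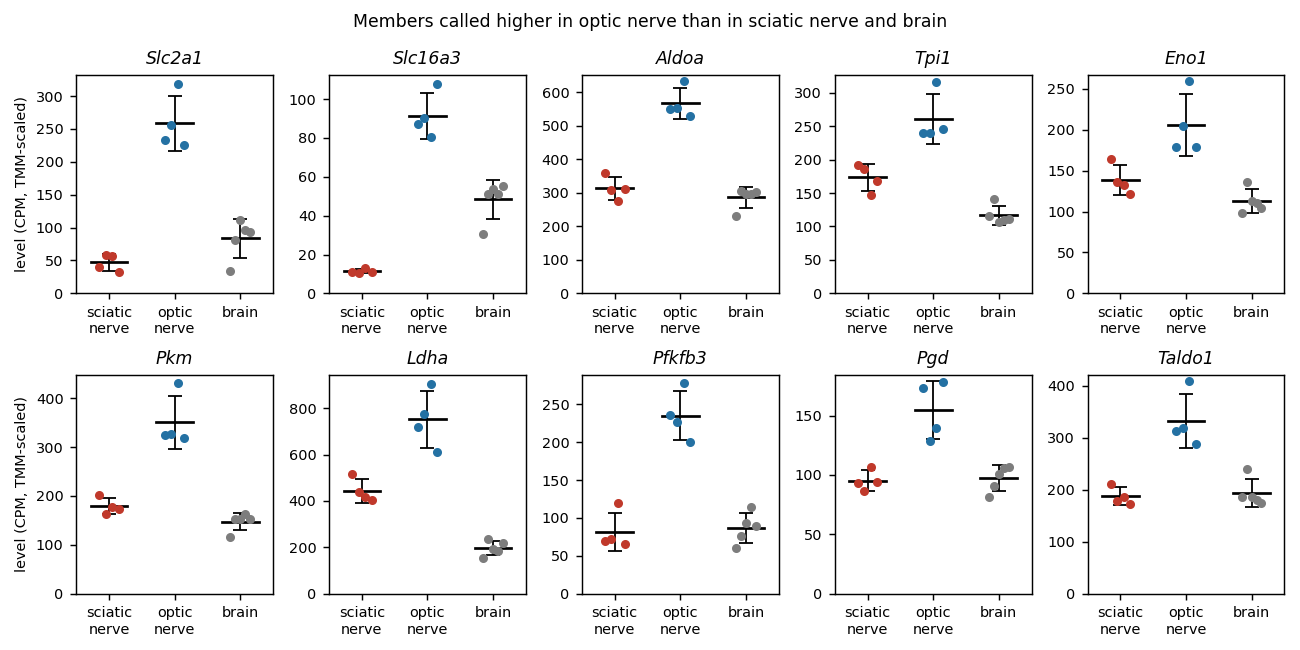
Level in CPM (y axis, from 0) of the 10 members called higher in optic nerve than in both other tissues, by tissue; points are libraries, lines are means and bars are SD. In each panel the 4 optic nerve libraries lie above all sciatic nerve and brain libraries, as for Ldha with 610.5 to 907 CPM in optic nerve and at most 518 CPM elsewhere. The 10 were picked by calls on these same values.

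Hexokinase traps glucose in the cell by phosphorylation, and of its 3 genes Hk2 was called lower than brain in both nerves. Hk2 (chr6:82725025-82774454), the inducible form that can bind mitochondria, was at 40.0, 54.4, 67.1 and 64.2 CPM in sciatic nerve, 99.8, 98.5, 103 and 99.9 CPM in optic nerve, and 332, 175, 144, 151 and 145 CPM in brain. No pair of tissues overlapped, and the order was sciatic nerve, optic nerve, brain from low to high. Sciatic nerve was lower than brain (-1.75, SE 0.24, adjusted p = 4.66e-05) and optic nerve was lower than brain (-0.92, SE 0.24, adjusted p = 0.00916). The call of sciatic below optic nerve (-0.83, SE 0.25, adjusted p = 0.0298) was lost without any 1 of 6 nerve libraries, with adjusted p up to 0.0882 without sciatic nerve replicate 1. Hk1, the constitutive form, averaged 48.8 ± 8.06 in sciatic nerve, 35.5 ± 9.35 in optic nerve and 32.1 ± 7.04 CPM in brain, and was called for sciatic nerve over brain (0.60, SE 0.22, adjusted p = 0.0321). That call was lost without sciatic nerve replicate 1 or 3 or brain replicate 2 or 5 (adjusted p 0.0607 to 0.0977), without both brain replicates 1 and 2 (0.118), with upper-quartile scaling (0.0572), with no filter on low counts (0.0693) and with libraries scaled to total counts alone (0.17, adjusted p = 0.525). Hk3, the form of blood cells, averaged 104 ± 19.3 CPM, 107 ± 12.3 CPM and 89.0 ± 32.1 CPM in the same order and was not called in any comparison. Per kb of transcript Hk3 was the highest hexokinase gene in both nerves, with 32.2 CPM per kb in sciatic nerve and 33.3 CPM per kb in optic nerve, against 27.7 CPM per kb in brain, where Hk2 had 34.4 CPM per kb. The brain value of Hk2 included 332 CPM in replicate 1, and brain Hk2 and Hk3 overlapped across libraries.

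Pfkp had the largest log2 fold change of the tested members. Phosphofructokinase commits sugar to glycolysis and exists as a liver (Pfkl), muscle (Pfkm) and platelet (Pfkp) form. Pfkp (chr13:6579768-6648777) was at 80.2, 92.4, 75.4 and 86.7 CPM in sciatic nerve, 5.49, 2.15, 1.79 and 6.27 CPM in optic nerve, and 11.1, 0.142, 1.59, 0.417 and 1.25 CPM in brain. Every sciatic nerve library was far above every other library, with log2 fold changes of 4.94 over brain (SE 0.79, adjusted p = 3.22e-04) and 4.41 over optic nerve (SE 0.83, adjusted p = 0.00297). Without brain replicate 1 the value over brain was 6.65 (adjusted p = 6.05e-07). Optic nerve and brain overlapped through that library. Without it optic nerve was called above brain (2.24, adjusted p = 0.00531), against 0.52 with it (adjusted p = 0.65).

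Pfkl (chr10:77986947-78010083) went the other way, with 56.0, 32.2, 40.0 and 26.1 CPM in sciatic nerve, 127, 105, 152 and 125 CPM in optic nerve, and 79.0, 133, 132, 116 and 132 CPM in brain. Sciatic nerve lay below brain (-1.62, SE 0.22, adjusted p = 3.79e-05) and below optic nerve (-1.72, SE 0.23, adjusted p = 7.45e-05) without overlap, and optic nerve and brain overlapped (0.10, adjusted p = 0.748). Pfkm was low throughout, at 10.7 ± 4.92 in sciatic nerve, 6.75 ± 4.69 in optic nerve and 2.84 ± 1.89 CPM in brain, and was called for sciatic nerve over brain (1.91, SE 0.61, adjusted p = 0.0197), a call lost without sciatic nerve replicate 3 (adjusted p = 0.0605), without both brain replicates 1 and 2 (0.0703) and with libraries scaled to total counts alone (0.0573). Per kb of transcript the sciatic nerve libraries held 20.2 CPM per kb of Pfkp, 10.3 of Pfkl and 3.72 of Pfkm. Optic nerve held 0.947 CPM per kb of Pfkp, 34.1 of Pfkl and 2.35 of Pfkm, and brain held 0.700, 31.8 and 0.985. By this measure the leading phosphofructokinase transcript was Pfkp in sciatic nerve and Pfkl in optic nerve and brain. Per kb of all annotated exons, sciatic nerve held 6.24 ± 0.554 CPM of Pfkp and 5.77 ± 1.94 CPM of Pfkl. The lead of Pfkp in sciatic nerve thus depends on the length used. Pfkp overlaps the annotated gene Pitrm1, and the strand setting of the counting is not given in the sources used here, so reads of the overlap cannot be assigned to either gene. Slc2a1, Gpi1, Pkm, Pfkfb2, Tigar, G6pdx and Hif1a also overlap other annotated genes, and the same holds for them.

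**Figure D3:**
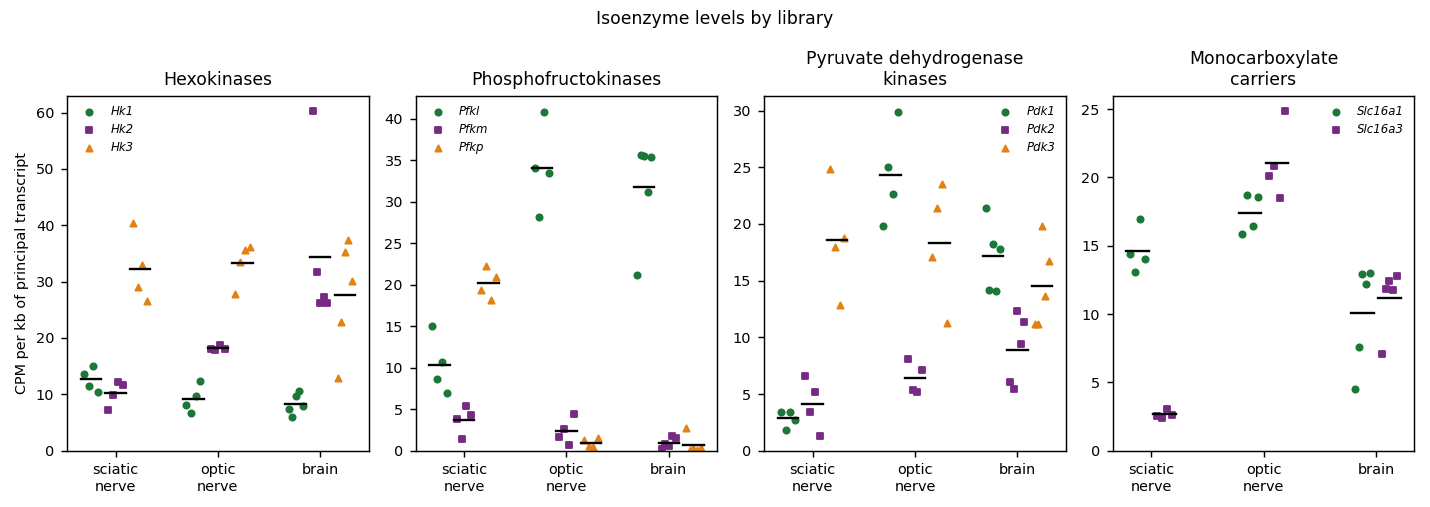
CPM per kb of the principal transcript (y axis, from 0) for hexokinase, phosphofructokinase, pyruvate dehydrogenase kinase and monocarboxylate carrier genes by tissue; points are libraries and lines are means. With this length Pfkp leads its family in sciatic nerve (20.2 CPM per kb) and Pfkl in optic nerve and brain (34.1 and 31.8). Pdk1 and Slc16a3 are low in sciatic nerve (2.86 and 2.65).

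Gpi1 (chr7:34201330-34230336), the isomerase between glucose phosphate and fructose phosphate, was the other upper enzyme gene called higher in sciatic nerve than in both other tissues. Its levels were 252, 220.3, 228 and 181 CPM in sciatic nerve, 104, 102, 132 and 128 CPM in optic nerve, and 81.1, 68.8, 59.0, 66.0 and 57.7 CPM in brain. The tissues formed 3 steps without overlap, with 1.73 for sciatic nerve over brain (SE 0.15, adjusted p = 2.38e-07), 0.81 for optic nerve over brain (SE 0.15, adjusted p = 7.85e-04) and 0.92 for sciatic over optic nerve (SE 0.16, adjusted p = 6.03e-04). Aldoa (chr7:126795234-126800751), the main aldolase gene outside liver and brain, was at 359, 309, 276 and 310.4 CPM in sciatic nerve, 550.0, 554, 633 and 531 CPM in optic nerve, and 232, 307, 297, 296 and 304 CPM in brain. Only optic nerve stood out among the tissues, with 0.98 over brain (SE 0.13, adjusted p = 3.31e-05) and -0.85 for sciatic against optic nerve (SE 0.13, adjusted p = 2.76e-04). The sciatic nerve to brain difference of Aldoa was 0.13 (adjusted p = 0.437), and it was -0.32 (adjusted p = 0.0271) when libraries were scaled to total counts alone. Aldoc, the brain aldolase, averaged 4.42 ± 2.08 CPM in sciatic nerve and 0.823 ± 0.662 CPM in optic nerve, and was at 23.6 CPM in brain replicate 1 and 1.17 to 3.29 CPM in the other brain libraries. The nerves did not overlap, and sciatic over optic nerve was not called (2.41, adjusted p = 0.0883) but was by DESeq2 (adjusted p = 0.0284), without brain replicate 1 (0.0231) and with the 2 tissues fitted alone (0.0352). Its call of optic nerve below brain (-2.98, SE 0.87, adjusted p = 0.0236) was lost without brain replicate 1 (-1.50, adjusted p = 0.102), and without optic nerve replicate 2, 3 or 4. Tpi1, which interconverts the triose phosphates, averaged 173 ± 19.9 in sciatic nerve, 260.3 ± 37.6 in optic nerve and 117 ± 14.2 CPM in brain, and was called in all 3 comparisons (0.57, 1.15 and -0.59, with adjusted p 0.00381, 1.75e-05 and 0.0101). The Tpi1 call of sciatic nerve over brain was lost with libraries scaled to total counts alone (0.12, adjusted p = 0.489).

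The lower part of glycolysis, from glyceraldehyde phosphate to lactate, rose in optic nerve over brain in 4 of 8 members and fell in none. Sciatic nerve was called below optic nerve in 3 of the 8 (37.5%), beside 10.9% of all tested genes. All 8 had a negative log2 fold change there, as did 6588 of the 13246 tested genes. Pgk1, Pgam1 and Eno2 among the 8 had low counts and were called in no comparison. Ldha (chr7:46841475-46855627), the lactate dehydrogenase subunit that favours lactate formation, was at 518, 437, 416 and 405 CPM in sciatic nerve, 720.3, 776, 907 and 610.5 CPM in optic nerve, and 155, 234, 192, 182 and 218 CPM in brain. It formed 3 steps without overlap. Sciatic nerve exceeded brain by 1.18 (SE 0.15, adjusted p = 1.68e-05), optic nerve exceeded brain by 1.94 (SE 0.15, adjusted p = 1.93e-07), and sciatic against optic nerve was -0.76 (SE 0.16, adjusted p = 0.00303). Pkm (chr9:59656368-59679375), which encodes the pyruvate kinase of most tissues in spliced forms that gene counts do not separate, was at 202, 164, 178 and 174 CPM in sciatic nerve, 325, 326, 432 and 319 CPM in optic nerve, and 116, 153, 153, 163 and 153 CPM in brain. Optic nerve was above both, with 1.25 over brain (SE 0.14, adjusted p = 8.46e-06) and -0.97 for sciatic against optic nerve (SE 0.15, adjusted p = 2.26e-04). Eno1, the common enolase, averaged 139 ± 18.2 in sciatic nerve, 205.5 ± 37.9 in optic nerve and 112 ± 14.7 CPM in brain, called for optic nerve over brain (0.87, adjusted p = 5.39e-04) and for sciatic below optic nerve (-0.57, adjusted p = 0.0208). The last call was lost without sciatic nerve replicate 2, 3 or 4 or optic nerve replicate 3 (adjusted p 0.0534 to 0.0815) and with no filter on low counts (0.0586). Eno2, the enolase of neurons, stayed at 1.02, 2.75 and 0.763 CPM on average in sciatic nerve, optic nerve and brain. Eno3, the muscle enolase, averaged 7.76, 12.7 and 16.9 CPM in that order, and its call of sciatic nerve below brain (-1.12, SE 0.35, adjusted p = 0.0194) was lost without sciatic nerve replicate 3 or brain replicate 2.

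Gapdh, Pgk1 and Pgam1 encode the abundant enzymes in the middle of that chain, yet their counts were low. Gapdh averaged 21.9 ± 4.82 in sciatic nerve, 31.7 ± 2.69 in optic nerve and 17.3 ± 3.60 CPM in brain. Pgk1 averaged 4.95 ± 1.10 CPM, 7.82 ± 1.86 CPM and 4.73 ± 0.839 CPM, and Pgam1 2.22 ± 0.566 CPM, 4.27 ± 0.927 CPM and 2.73 ± 0.333 CPM, in the same order. Per kb of transcript Gapdh had 22.3 and Pgk1 4.28 CPM per kb in optic nerve, where Ldha had 426.5 and Aldoa 375. The genes have near-identical copies elsewhere in the annotation, here meaning other genes that match the principal transcript at 95% identity or more over at least 100 bases. Gapdh had 81 such copies, 77 of them pseudogenes, which covered 88.0% of its transcript. Pgk1 had 4 copies covering 68.8% and Pgam1 had 1 covering 43.1%. How multi-mapping reads were handled is not given in the sources used here, so counts of these genes are uncertain. The annotated Gapdh pseudogenes held 473 counts in sciatic nerve, 1015 in optic nerve and 1048 in brain, beside 1288, 2312 and 2043 counts of Gapdh itself. Of these 3 genes Gapdh was called for optic nerve over brain (0.87, SE 0.21, adjusted p = 0.00566), and no other comparison of them was called.

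Copies also covered 85.6% of the Eno1 transcript, 65.5% of Pkm, 56.6% of Ldha, 54.5% of Gpi1 and 19.3% of Tpi1, so their levels carry the same uncertainty. Of the 10 members highest in optic nerve, Slc2a1, Slc16a3, Aldoa, Pfkfb3, Pgd and Taldo1 had no such copy. Over all members 30 had none, and 9 had at least 1.

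**Figure D4:**
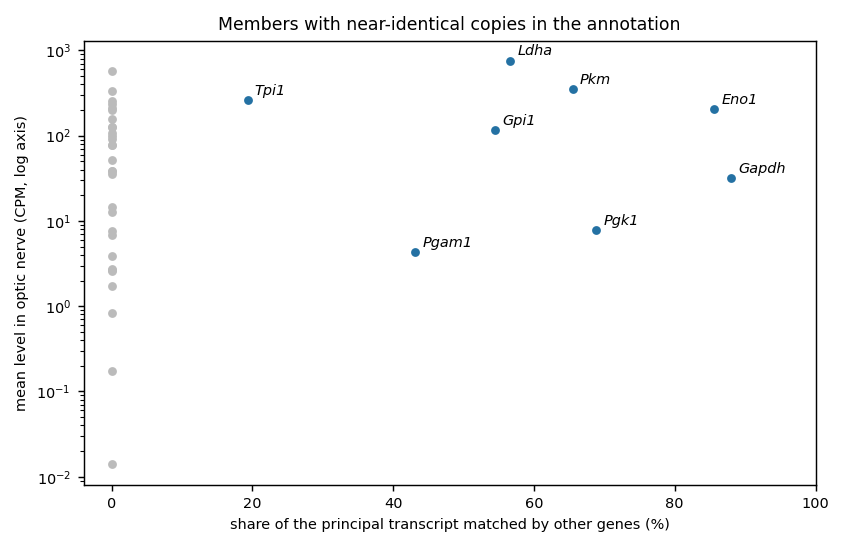
Mean level in optic nerve (y axis, CPM, log axis) against the share of the principal transcript matched by other genes at 95% identity or more (x axis, %), 1 point per member with a level above 0; blue points have at least 1 copy. Gapdh (88.0%), Pgk1 (68.8%) and Pgam1 (43.1%) lie at 31.7, 7.82 and 4.27 CPM, while Ldha (56.6%) and Pkm (65.5%) lie at 753 and 350.5 CPM.

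Of the enzymes that make or remove the sugar bisphosphate that activates phosphofructokinase, Pfkfb3 alone was called. Pfkfb3 (chr2:11471433-11554077) encodes the inducible kinase form that raises the activator. It was at 68.9, 72.2, 119 and 65.6 CPM in sciatic nerve, 236, 226, 278 and 200 CPM in optic nerve, and 60.5, 76.1, 93.9, 114 and 88.9 CPM in brain. Optic nerve exceeded both others in every library, with 1.44 over brain (SE 0.21, adjusted p = 1.04e-04) and -1.53 for sciatic against optic nerve (SE 0.22, adjusted p = 1.47e-04). Sciatic nerve and brain overlapped (-0.09, adjusted p = 0.745). Pfkfb4 averaged 49.4 ± 10.7 CPM, 52.3 ± 8.81 CPM and 49.9 ± 10.3 CPM in sciatic nerve, optic nerve and brain. Pfkfb1, Pfkfb2 and Tigar averaged at most 2.85 CPM in any tissue and were not called. Fbp1, the bisphosphatase of gluconeogenesis, had 52 counts in the 4 sciatic nerve libraries, 1 in the 4 optic nerve libraries and 0 in the 5 brain libraries. Taking 3 counts over the brain group as its limit (0.0265 CPM), it was at least 33.0-fold higher in sciatic nerve than in brain, with no test.

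Pyruvate dehydrogenase kinases keep pyruvate out of the mitochondrial citrate cycle by phosphorylating pyruvate dehydrogenase. Pdk1 (chr2:71873224-71903858), the form known as a target of the hypoxia-inducible factor, was at 17.9, 9.69, 17.6 and 14.1 CPM in sciatic nerve, 103, 130, 118 and 155 CPM in optic nerve, and 111, 73.5, 94.7, 73.1 and 92.2 CPM in brain. Sciatic nerve lay far below both other tissues in every library, with -2.58 against brain (SE 0.20, adjusted p = 1.68e-07) and -3.09 against optic nerve (SE 0.21, adjusted p = 1.17e-07). Optic nerve and brain overlapped (0.51, adjusted p = 0.0578), although optic nerve was called higher without brain replicate 1 (0.60, adjusted p = 0.0242), sciatic nerve replicate 2 or optic nerve replicate 1. Pdk3 averaged 39.4 ± 10.4 in sciatic nerve, 38.7 ± 11.5 in optic nerve and 30.7 ± 7.90 CPM in brain and was not called. Pdk2 averaged 9.21 ± 5.14 CPM, 14.4 ± 3.14 CPM and 20.0 ± 6.92 CPM, and its call of sciatic nerve below brain (-1.12, SE 0.40, adjusted p = 0.0331) was lost without any 1 of 5 libraries (adjusted p 0.0536 to 0.0835) and with the 2 tissues fitted alone (0.057). Per kb of transcript the kinase genes had 2.86 (Pdk1), 4.10 (Pdk2) and 18.6 (Pdk3) CPM per kb in sciatic nerve, 24.4, 6.42 and 18.3 in optic nerve, and 17.1, 8.92 and 14.5 in brain. Pdk3 was the leading kinase transcript in sciatic nerve, and Pdk1 and Pdk3 overlapped across libraries in optic nerve and brain. Pdk4 had 81 counts in sciatic nerve, 0 in optic nerve and 1 in brain, and 69 of the 81 came from sciatic nerve replicate 4.

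Among the 6 pentose phosphate genes, 1 (16.7%) was called higher in sciatic than in optic nerve and 2 (33.3%) lower. Shares of all tested genes were 10.9% each way. The other 3 were not called there, and 5 of the 6 had a negative log2 fold change. G6pdx (chrX:74409483-74429194), the rate-limiting dehydrogenase that opens the oxidative branch, was at 146, 139, 132 and 124 CPM in sciatic nerve, 73.2, 68.0, 83.6 and 89.7 CPM in optic nerve, and 43.5, 44.2, 83.5, 73.9 and 64.8 CPM in brain. Sciatic nerve was above both without overlap, by 1.13 over brain (SE 0.19, adjusted p = 2.32e-04) and 0.78 over optic nerve (SE 0.20, adjusted p = 0.0124). Pgd (chr4:149149991-149166771), the second NADPH-forming dehydrogenase of that branch, was at 93.6, 86.3, 107 and 94.1 CPM in sciatic nerve, 173, 128, 140 and 178 CPM in optic nerve, and 81.1, 90.6, 101, 106 and 107 CPM in brain. Here optic nerve was above both without overlap, by 0.67 over brain (SE 0.14, adjusted p = 0.00222) and -0.70 for sciatic against optic nerve (SE 0.15, adjusted p = 0.00356). Pgls, the lactonase between them, averaged 34.4 ± 6.07 in sciatic nerve, 38.9 ± 4.80 in optic nerve and 38.7 ± 13.1 CPM in brain and was not called. The 2 dehydrogenase genes of the oxidative branch thus peaked in different nerves.

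In the branch that rearranges sugars, Taldo1 (chr7:141392199-141402968), transaldolase, was at 212, 179, 186 and 172 CPM in sciatic nerve, 313, 318, 409 and 289 CPM in optic nerve, and 186, 241, 186, 181 and 174 CPM in brain. Optic nerve was higher than brain by 0.78 (SE 0.14, adjusted p = 6.85e-04), and sciatic against optic nerve was -0.83 (SE 0.15, adjusted p = 9.04e-04). Tkt, transketolase, averaged 194 ± 30.9 in sciatic nerve, 198.5 ± 8.26 in optic nerve and 133 ± 24.9 CPM in brain, higher than brain in both nerves (0.55 and 0.58, adjusted p = 0.0109 and 0.0111). Both Tkt calls were lost with libraries scaled to total counts alone (0.11 and 0.33, adjusted p = 0.565 and 0.0896). Rpia, the ribose phosphate isomerase, was at 1.79 ± 0.722 in sciatic nerve, 2.66 ± 1.18 in optic nerve and 32.6, 15.1, 2.10, 4.13 and 3.93 CPM in the brain libraries. It was called lower than brain in both nerves (-2.69 and -2.11, adjusted p = 0.0105 and 0.0394). Without brain replicates 1 and 2 those values were -0.92 (adjusted p = 0.212) and -0.34 (adjusted p = 0.682), so the calls rest on these libraries. Without brain replicate 1 alone they were -1.82 (adjusted p = 0.0344) and -1.25 (adjusted p = 0.142), and the call of optic nerve was also lost without brain replicate 2 or any 1 optic nerve library.

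Hif1a (chr12:73901375-73947530) encodes the oxygen-regulated subunit of the hypoxia-inducible factor, whose activity is set mainly by protein stability. Its transcript was at 84.0, 103, 145 and 127 CPM in sciatic nerve, 167, 242, 213 and 223 CPM in optic nerve, and 98.1, 116, 160, 194 and 190 CPM in brain. The nerves did not overlap (-0.88 for sciatic against optic nerve, SE 0.23, adjusted p = 0.0134), while brain overlapped both. Sciatic nerve against brain was not called with all libraries (-0.40, adjusted p = 0.148) but was called lower without brain replicate 1 (-0.53, adjusted p = 0.0387).

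Of the 37 tested members, 3 were called higher in sciatic nerve than in both others (Gpi1, Pfkp and G6pdx; 8.11%), near the 8.36% of all tested genes. Lower calls against both others numbered 5 in sciatic nerve (Slc2a1, Slc16a3, Hk2, Pfkl and Pdk1; 13.5%), beside 8.43% of all tested genes. Slc2a1 and Slc16a3 are also among the 10 called higher in optic nerve than in both others. Hk2 and Rpia were called lower than brain in both nerves. The 10 tested members not called in any comparison were Hk3, Pgk1, Pgam1, Eno2, Pfkfb1, Pfkfb2, Pfkfb4, Tigar, Pdk3 and Pgls. A p that misses the threshold does not show that they were equal.

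Markers of other cells and of cell handling also differed between the tissues. Oligodendrocyte markers (6 genes) summed to 165.7 to 236.1 in sciatic nerve, 266.9 to 332.9 in optic nerve and 123.4 to 178.3 CPM in brain, with none of the 6 at 0 counts in any tissue, so optic nerve was highest there too. Astrocyte markers (7 genes) summed to 20.8 to 89.0 CPM, 86.5 to 108.8 CPM and 183.8 to 243 CPM in the same order, and Aqp4 was at 0 counts in sciatic nerve. Of the 5 tested astrocyte markers 2 were called higher and 1 lower in optic nerve against brain, with a median log2 fold change of 2.54. Skeletal muscle markers (10 genes) were low, at 6.995 to 10.6 CPM, 7.93 to 13.2 CPM and 9.09 to 32.5 CPM, with Mb at 0 counts in all tissues. Neuronal markers (9 genes) summed to at most 2.75 CPM in sciatic nerve and 1.40 CPM in optic nerve, with 3 and 5 of them at 0 counts. Fibroblast markers (8 genes) summed to 197.4 to 415.4 in sciatic nerve, 13.02 to 41.3 in optic nerve and 2.27 to 7.65 CPM in brain. Schwann cell markers (7 genes) ran from 1029 to 1178 CPM, 520.6 to 737.3 CPM and 326.4 to 750.4 CPM in that order. Of these 7 markers 3 had enough counts to be tested. Sox10 was at 0 counts in sciatic nerve, Prx and Ngfr in optic nerve, and Prx, Cdh19 and Ngfr in brain. Monocyte markers (5 genes) ran from 384.9 to 562.4 CPM in sciatic nerve, 7.03 to 23.2 CPM in optic nerve and 0.712 to 10.2 CPM in brain. Immediate early genes (14 genes), which respond within minutes to cell isolation as well as to signals, summed to 29040 to 34220 in sciatic nerve, 14310 to 18380 in optic nerve and 528 to 703 CPM in brain. All 14 were called higher in each nerve than in brain, and 6 were called higher in sciatic than in optic nerve. Macrophage stimulation genes (10 genes) showed 29800 to 42060, 17890 to 27310 and 283.3 to 408.5 CPM in that order. All 10 were called higher in each nerve than in brain, and between sciatic and optic nerve 5 were called higher and 1 lower. The part of these cells and of this response in the levels of the members was not tested.

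Other genes of these pathways were taken from 7 lists of 106 genes that hold none of the 39, of which 84 were tested. In sciatic nerve against brain 20 were called higher (23.8%) and 25 lower (29.8%), beside 24.1% and 24.3% of all tested genes. In optic nerve against brain 19 were called higher (22.6%) and 12 lower (14.3%), beside 19.6% and 17.4%. In sciatic against optic nerve 7 were called higher (8.33%) and 16 lower (19.0%), beside 10.9% each way. The median log2 fold changes were -0.08, -0.05 and -0.12.

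Ldhb (chr6:142490249-142507957), the lactate dehydrogenase subunit that favours pyruvate formation, had the largest change among the listed glycolytic enzyme genes outside the set. It was at 7.78, 7.06, 6.12 and 5.46 CPM in sciatic nerve, 734, 712, 903 and 490 CPM in optic nerve, and 376, 472, 396, 399 and 393 CPM in brain. Sciatic nerve was lower than brain (-5.94, SE 0.17, adjusted p = 1.95e-11) and than optic nerve (-6.75, SE 0.18, adjusted p = 9.7e-11), and optic nerve exceeded brain by 0.80 (SE 0.17, adjusted p = 0.00172). Like Ldha it was highest in optic nerve, but unlike Ldha it was lower in sciatic nerve than in brain.

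Among carriers, Slc2a6, a glucose transporter gene of myeloid cells, averaged 10.5 ± 3.15 in sciatic nerve, 65.3 ± 18.5 in optic nerve and 1.35 ± 1.25 CPM in brain, called in all 3 comparisons (2.96, 5.60 and -2.63, adjusted p = 0.00318, 5.82e-05 and 0.0172). Slc2a5, the fructose carrier gene and a microglial marker counted in the marker list above, averaged 0.700, 307 and 1156 CPM in that order. Emb, which encodes embigin, a chaperone of lactate carriers, averaged 177 ± 31.5 in sciatic nerve, 1.21 ± 1.15 in optic nerve and 0.805 ± 1.62 CPM in brain (8.11 over brain and 7.20 over optic nerve, adjusted p = 1.6e-05 and 1.92e-04). Slc16a7, the lactate carrier MCT2 gene, averaged 94.1 ± 17.6 in sciatic nerve, 32.8 ± 3.33 in optic nerve and 45.5 ± 13.1 CPM in brain, and was called higher in sciatic nerve than in brain (1.05, adjusted p = 0.00135) and than in optic nerve (1.52, adjusted p = 2.86e-04). Of the lactate carrier and chaperone genes named here, Slc16a7 and Emb were therefore called highest in sciatic nerve and Slc16a3 in optic nerve. Slc16a1 had its highest mean in optic nerve but was called over brain alone.

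**Figure D5:**
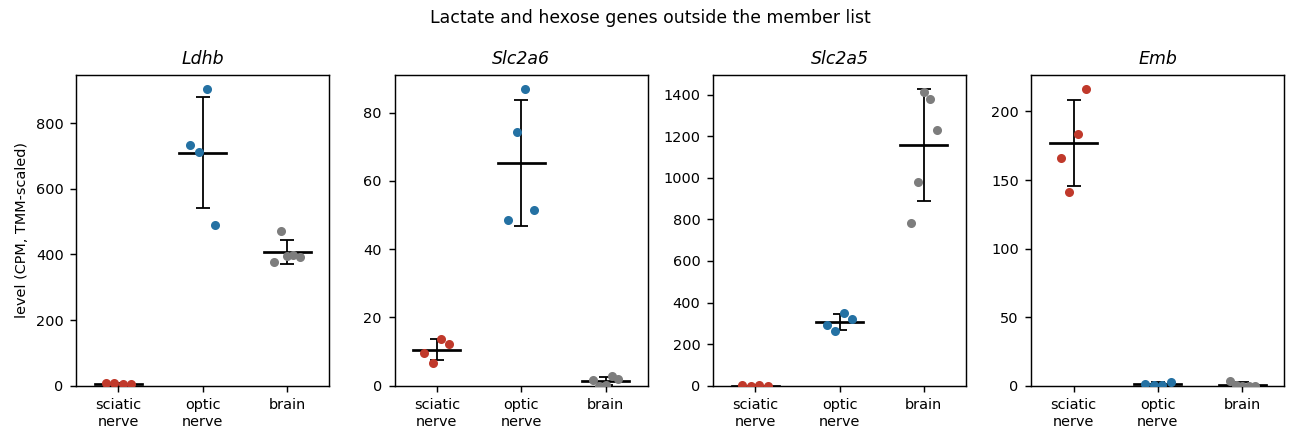
Level in CPM (y axis, from 0) of Ldhb, Slc2a6, Slc2a5 and Emb by tissue; points are libraries, lines are means and bars are SD. Ldhb is at 5.46 to 7.78 CPM in sciatic nerve and 376 CPM or more elsewhere, Slc2a6 is highest in optic nerve, Slc2a5 in brain, and Emb in sciatic nerve.

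Of hypoxia-induced and control genes, Egln3, an oxygen-sensing prolyl hydroxylase that is itself a hypoxia target, averaged 0.592 ± 0.669 in sciatic nerve, 14.1 ± 4.30 in optic nerve and 0.886 ± 0.786 CPM in brain (4.01 for optic nerve over brain and -4.56 for sciatic against optic nerve, adjusted p = 0.0109 and 0.0162). Vegfa averaged 2.78, 7.05 and 0.630 CPM in that order and was called over brain in both nerves (2.12 and 3.46, adjusted p = 0.011 and 7.72e-04). Ndrg1 was highest in sciatic nerve, at 10.8 ± 4.03 CPM, against 1.96 ± 1.70 in optic nerve and 0.0727 ± 0.0578 CPM in brain (7.21 over brain and 2.46 over optic nerve, adjusted p = 7.5e-06 and 0.0259). Adm, adrenomedullin, averaged 7.49 CPM in sciatic nerve and 4.00 in optic nerve. Brain had 0 counts, so the nerves were at least 282-fold and 151-fold higher. Of the 22 tested genes of this list of 24, sciatic nerve against brain had 6 called higher and 6 called lower (27.3% each, beside 24.1% and 24.3% of all tested genes), and optic nerve against brain 7 and 5 (31.8% and 22.7%, beside 19.6% and 17.4%). The sciatic nerve shares of this list were near those of all genes.

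Of the regulators, Myc, a transcription factor that drives glycolytic genes, averaged 44.4 ± 5.66 in sciatic nerve, 72.1 ± 11.9 in optic nerve and 44.4 ± 9.90 CPM in brain (0.70 for optic nerve over brain and -0.70 for sciatic against optic nerve, adjusted p = 0.0115 and 0.0241). Txnip, which restrains glucose uptake, averaged 380 ± 54.8 in sciatic nerve, 176 ± 70.0 in optic nerve and 594 ± 157 CPM in brain, lowest in optic nerve (-1.76 against brain and 1.11 for sciatic over optic nerve, adjusted p = 1.08e-04 and 0.00632). Mlxipl, which encodes the glucose-sensing factor ChREBP, averaged 1.00 ± 1.46 in sciatic nerve, 33.5 ± 5.56 in optic nerve and 38.2 ± 16.9 CPM in brain (-5.25 against brain and -5.06 against optic nerve, adjusted p = 2.25e-05 and 8.58e-05). Mpc1, a subunit of the carrier that brings pyruvate into mitochondria, averaged 14.0 ± 2.86 in sciatic nerve, 33.1 ± 4.87 in optic nerve and 17.0 ± 1.58 CPM in brain, called higher in optic nerve than in both (adjusted p = 0.00145 and 4.25e-04). Mpc1, Myc, Ldhb, Slc2a6 and Egln3 were the genes of the 7 lists with this pattern. Pygm, the muscle glycogen phosphorylase gene, had 0 counts in optic nerve, at least 127-fold below the 5.19 CPM of brain.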

How the data were processed

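Read counts per gene symbol were deposited by the authors, who aligned reads to mm10 with STAR and counted them by featureCounts 1.5.1 (per the submitters' processing notes). Not given in the sources used here are STAR's version, the gene models, strandedness and the handling of multi-mapping reads. The values are whole numbers, and 0 columns of per-sample values were unused. Arrays and single cells of the study were not analysed here. Columns of the nerves were matched to samples by tissue initials and replicate number, and the brain columns by elimination.

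The tests used edgeR 4.0.16 under R 4.3.3. After filterByExpr by group, 13246 genes were left, libraries were scaled by TMM, and all 13 entered 1 quasi-likelihood fit with tissue as factor and no replicate block. The 3 contrasts were tested with Benjamini-Hochberg adjustment over all tested genes and called at an adjusted p under 0.05. CPM uses TMM-scaled library sizes, and each mean ± SD covers the 4 libraries of a nerve or the 5 of brain. The fit was tested on simulated data. A group at 0 counts has a limit of 3 counts over the group, equal to 0.0512 (sciatic nerve), 0.0409 (optic nerve) and 0.0265 CPM (brain), and covers counting error only.

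Gene positions, lengths and principal transcripts came from GENCODE vM21 (GRCm38, the assembly of mm10), and promoters from RefSeq (GRCm38.p6). The members and gene lists were chosen with earlier results of these data known. All 39 members are named. Of the 7 lists of other pathway genes, the called genes with the 3 largest changes in each direction and comparison are named, at an average of at least 5 CPM in the higher tissue. Mpc1 and Myc were added after their values were seen. Alternatives were other scalings (RLE, upper quartile, none), DESeq2 1.42.0, other filters on low counts, the tissues compared alone, a fold minimum, a replicate block and left-out libraries.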

Additional observations from a re-analysis of the deposited data

Results flagged for a closer look

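In 15 of 113 groups of libraries (a member in a tissue), 1 library lay far from the others by Dixon's criterion, and chance gives about 1 in 20. Of the 15, 7 concern brain replicate 1. That library was highest for Hk2 (332 CPM, next 175), Pfkp (11.1 CPM, next 1.59) and Aldoc (23.6 CPM, next 3.29), and lowest for Slc16a3 (30.7 CPM, next 50.9), Aldoa (232 CPM, next 296), Pkm (116 CPM, next 153) and Pfkfb4 (31.7 CPM, next 52.0). It is the library with the lowest total and the highest mitochondrially encoded share, and the part of these in the values was not tested.

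Brain replicate 2 was highest for Tpi1 (142 CPM, next 116) and Taldo1 (241 CPM, next 186). Optic nerve replicate 3 was highest for Tpi1 (316 CPM, next 245) and Pkm (432 CPM, next 326), both called higher in optic nerve than in both other tissues with or without it. Among sciatic nerve libraries, replicate 3 was highest for Pfkfb3 (119 CPM, next 72.2), replicate 1 for Pfkfb1 (0.850 CPM, next 0.0692), and replicate 4 for Pfkfb2 (4.13 CPM, next 0.692) and Pdk4 (4.60 CPM, next 0.720).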

How the results depend on the processing

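Of 51 member comparisons called, 36 were called under every alternative that gave them an adjusted p (20 to 22), and 15 were lost under at least 1. DESeq2 gave no adjusted p for Pfkp. Its calls over brain and over optic nerve therefore rest on 20 and 21 alternatives. The members called higher in optic nerve than in both other tissues numbered 9 to 12 over the alternatives, where the main value was 10. The share of all tested genes with this pattern moved too. It was 0.934% with no filter on low counts (9 members) and 4.4% without brain replicates 1 and 2 (12 members), where the main value was 2.53%. With no scaling factors the medians of all genes shifted to -0.54, -0.33 and -0.19 for sciatic nerve against brain, optic nerve against brain and sciatic against optic nerve, and calls to 2242 higher and 4942 lower, 1910 and 3258, and 1151 and 2063 (3191 and 3219, 2590 and 2303, and 1447 and 1445 with TMM). Members in sciatic nerve against brain were then 4 higher and 14 lower (9 and 8 in the main result), other pathway genes lower in optic nerve than in brain 22 (12), and Aldoa in sciatic nerve against brain turned to -0.32, relative to that shift. The construction of this setting, without correction for composition, gives the shift.

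With a 2-fold minimum, which can remove calls but not add them, members in optic nerve against brain were 5 higher, members in sciatic against optic nerve 1 higher and 5 lower, and other pathway genes in optic nerve against brain 10 higher and 7 lower, and 10 lower in sciatic than in optic nerve. Without a filter on low counts, members higher in sciatic than in optic nerve were 5 (3). Without brain replicates 1 and 2, members lower in optic nerve than in brain were 1 (3), other pathway genes lower there 19, and members higher in sciatic than in optic nerve 6. The causes were not tested.

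Leaving out each library in turn gave 7 to 10 members higher and 6 to 9 lower in sciatic nerve than in brain, 13 to 16 and 1 to 3 in optic nerve against brain, and 3 to 5 and 12 to 14 in sciatic against optic nerve. For other pathway genes the ranges were 18 to 21 and 22 to 26, 17 to 21 and 7 to 18, and 6 to 8 and 13 to 19. Shares of all tested genes in these fits are not set beside the ranges. Members lower in optic nerve than in brain fell to 1 without optic nerve replicate 2, 3 or 4 or brain replicate 1, other pathway genes lower there to 7 without optic nerve replicate 2, and members higher in sciatic than in optic nerve rose to 5 without brain replicate 1.

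Same-numbered nerve libraries did not deviate together (correlations -0.07 to 0.02). With 4 libraries per nerve this cannot show whether same-numbered libraries came from the same animals, and the labels do not say. With a replicate block, members in sciatic against optic nerve were 3 higher and 14 lower, and other pathway genes 7 higher and 19 lower. Brain columns carry no replicate number of the labels, so no block was possible there.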
